A study of Homo sapiens with 6 samples.

Results

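The 10 genes described here encode the phosphatase calcineurin, its RCAN regulators and the NFAT transcription factors that it activates. They are RCAN1, RCAN2, RCAN3, PPP3CA, PPP3CB, PPP3CC, NFATC1, NFATC2, NFATC3 and NFATC4, and they were taken by annotated symbol from the 20044 annotated genes of the array. They were chosen from results of these same arrays, with the higher RCAN2 signal after HBO1 knockdown already known, so the comparison of siHBO1 with siCTRL is given for them as a description, and its p-values place each probe among all probes measured and support nothing further. The 10 genes carry 21 of the 47316 probes.

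Illumina bead arrays measured RNA in 6 samples of UWB1.289, an established human ovarian carcinoma line that lacks functional BRCA1. The siHBO1 group is 3 samples of cells given a small interfering RNA (siRNA) against HBO1, and the siCTRL group is 3 samples of the same line given a scrambled siRNA, all collected 48 h after transfection in 12-well plates. HBO1, the product of KAT7, is a histone acetyltransferase. All samples share the BRCA1-deficient background, and the labels do not say whether replicates were separate cultures, so the spread between them may be technical. In bulk RNA, a change in the share of cells that express a gene and a change in the RNA per cell cannot be told apart.

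The targeted gene was lower in siHBO1 cells. KAT7 gave normalised log2 intensities of 5.59, 6.29 and 5.98 in siHBO1 cells, against 7.98, 7.93 and 7.56 in siCTRL cells, so every siHBO1 array was below every siCTRL array. KAT7 averaged 5.95 ± 0.35 in siHBO1 cells and 7.82 ± 0.23 in siCTRL cells (SD, n = 3 each), a log2 difference of -1.87 (limma adjusted p = 0.0187), which was -0.74 without background correction and lost its call without siHBO1 replicate 1, siHBO1 replicate 2, siCTRL replicate 2 or siCTRL replicate 3 (adjusted p up to 0.0965). Without any of those arrays, only 1 to 6 probes of the whole array passed, so that loss is not particular to KAT7.

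Calcineurin is a phosphatase that is switched on by calcium and calmodulin. It is made of a catalytic subunit, encoded by PPP3CA, PPP3CB or PPP3CC, and a calcium-binding regulatory subunit. Its best known substrates are the NFATC proteins, which enter the nucleus once dephosphorylated and are returned to the cytoplasm by kinases such as GSK3 and DYRK1A. RCAN proteins bind calcineurin and can inhibit it, and RCAN1 has an internal start site that NFAT itself can activate, which makes a feedback loop. The pathway was worked out largely in T cells and striated muscle.

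Signal was measurable for 8 of the 10 genes. A probe counted as detected on an array at a detection p (its rank among negative control probes) under 0.05, and was tested when detected on at least 3 of the 6 arrays, which 11 of the 21 member probes were. All 11 were detected on 6 of 6 arrays. Of the 10 untested probes, 9 were detected on 0 arrays, among them both NFATC2 probes and the single NFATC4 probe, so no level is given for those genes. In limma's moderated test, adjusted by Benjamini-Hochberg over 21333 tested probes, 1 of the 11 member probes was higher, 0 were lower and 10 did not pass a threshold of 0.05, while 2.73% of all tested probes passed (1.47% higher and 1.26% lower). Before adjustment, 2 of the 11 had a p under 0.05, against 21.4% of all tested probes. The groups did not overlap for 2 of the 11, against 27.1% of all tested probes, with siHBO1 above in 1 (13.3% of all) and below in 1 (13.8% of all). The median log2 difference, siHBO1 minus siCTRL, was 0.03 over the 11 probes and -0.01 over all tested probes.

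RCAN2 was the member that was higher in siHBO1 cells. RCAN2 encodes a calcineurin regulator best known from brain and muscle. On its brighter probe (ILMN_2120210) the deposited bead intensity was 438, 461 and 414 in siHBO1 cells, against 315, 303 and 260 in siCTRL cells. After background correction and quantile normalisation the log2 intensities were 8.02, 8.28 and 7.77 in siHBO1 cells, against 6.81, 6.65 and 6.33 in siCTRL cells. Every siHBO1 array was above every siCTRL array, and all 6 were above background. The group means were 8.02 ± 0.26 in siHBO1 cells and 6.60 ± 0.24 in siCTRL cells (SD, n = 3 each). The log2 difference was 1.43 (SE 0.17, 95% interval 1.02 to 1.83), or 2.69-fold higher in siHBO1 cells, and it ranked 65 by p among the tested probes (limma adjusted p = 0.0209).

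The size of the RCAN2 difference depended on how background was removed. Without background correction it was 0.65 on the log2 scale. Leaving out siHBO1 replicate 1 (1.43, adjusted p = 0.0681), siHBO1 replicate 2 (1.30, adjusted p = 0.0716), siCTRL replicate 2 (1.45, adjusted p = 0.101) or siCTRL replicate 3 (1.30, adjusted p = 0.0862) took the limma adjusted p above 0.05, and over all alternatives it ranged from 0.000362 to 0.101. In the same order, only 6, 3, 1 and 1 of all tested probes passed without these arrays. Nearly every call was lost there, so the loss is not particular to RCAN2. The second RCAN2 probe (ILMN_1794949) was at background on 5 of the 6 arrays. It read 5.68, 5.58 and 5.36 in siHBO1 cells, against 4.91, 6.38 and 4.96 in siCTRL cells. It was detected on siCTRL replicate 2 alone, where its detection p was 0.0117, so it fell short of the filter and the groups overlapped. A probe at background gives only a bound on the level, so no difference is read from it. Both probes are annotated to the same RefSeq transcript.

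**Figure D1:**
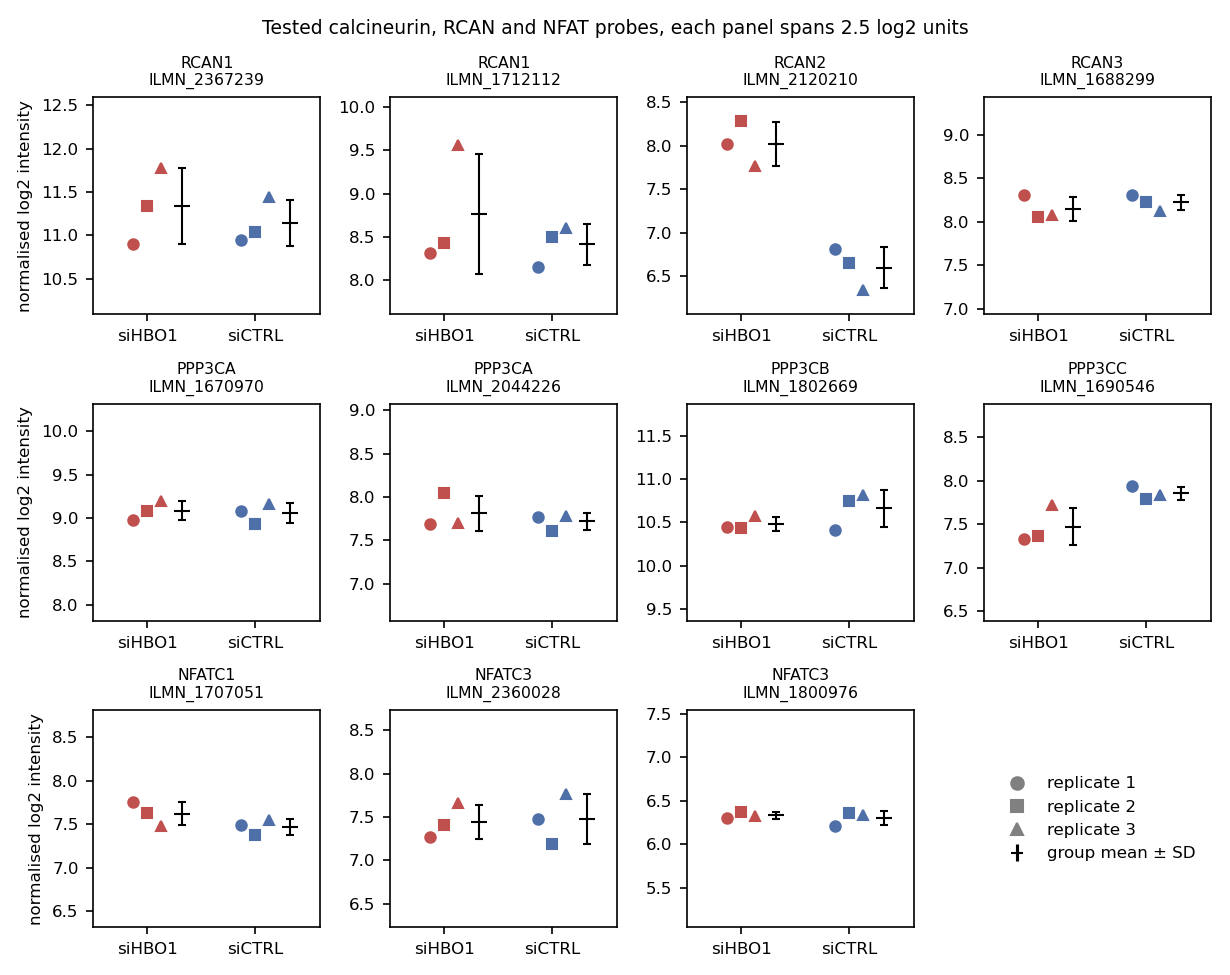
Normalised log2 intensity of the 11 tested probes of calcineurin, RCAN and NFAT genes on each array, siHBO1 in red on the left and siCTRL in blue on the right of each panel, with the group mean ± SD in black and a marker shape for each replicate. RCAN2 has its 3 siHBO1 arrays (7.77 to 8.28) above its 3 siCTRL arrays (6.33 to 6.81), PPP3CC has its siHBO1 arrays below, and in the other panels the groups overlap.

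Neuronal markers were looked at because RCAN2 is known from brain, with earlier results of these arrays known. Of 5 such genes, 2 were higher in siHBO1 cells by their brightest probe, against 234 of all 12227 genes with a tested probe. SNAP25, a vesicle fusion protein, had a log2 difference of 0.70 (SE 0.09, limma adjusted p = 0.0216), and SYT1, a calcium sensor of synaptic vesicles, one of 0.94 (SE 0.11, adjusted p = 0.0209). Without background correction these were 0.47 and 0.36, and leaving out siHBO1 replicate 1, siHBO1 replicate 2, siCTRL replicate 2 or siCTRL replicate 3 took either gene above the threshold (adjusted p from 0.0681 to 0.107), as did siCTRL replicate 1 for SNAP25 (0.0556). Without siHBO1 replicate 1 or 2, or siCTRL replicate 2 or 3, only 1 to 6 of all tested probes passed. RBFOX3, STMN2 and NEFL were detected on 0 of 6 arrays. The summed linear signal of the 5 markers, most of it from SNAP25 and SYT1, was 737 to 782 in siHBO1 cells, against 491 to 508 in siCTRL cells. Of 4 striated muscle markers with a probe, ACTA1, MYH7 and CKM were detected on 0 arrays. MYL2, a myosin light chain, had log2 differences of 0.76 on its brighter probe (limma adjusted p = 0.0605) and 0.82 on its dimmer one (adjusted p = 0.0753), and neither passed. Its groups did not overlap on either, with siHBO1 above, as for 13.3% of all tested probes. The summed linear signal of the muscle markers was 1321 to 1923 in siHBO1 cells, against 888 to 987 in siCTRL cells. Nearly all of it came from the brighter MYL2 probe, so the sum restates that gene. The part of neuronal or muscle-type expression in the RCAN2 result was not tested.

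RCAN1, the stress- and calcium-responsive founding member of the family, was measured by 2 of its 3 probes and its groups overlapped on both. The brighter probe (ILMN_2367239) read 10.90, 11.34 and 11.77 in siHBO1 cells, against 10.94, 11.04 and 11.44 in siCTRL cells. The other (ILMN_1712112) read 8.31, 8.43 and 9.56 in siHBO1 cells, against 8.15, 8.49 and 8.60 in siCTRL cells. On both probes siHBO1 replicate 3 was the highest of the 6 arrays and siHBO1 replicate 1 lay within or below the siCTRL values. The log2 differences were 0.20 (SE 0.23, 95% interval -0.36 to 0.75) and 0.35 (SE 0.33, 95% interval -0.41 to 1.12), neither past the threshold (limma adjusted p = 0.686 and 0.588). Without siHBO1 replicate 3 they were -0.02 and -0.04, so their sign rested on that array. The intervals are wide, and that of the second probe includes a 2-fold higher level. The third RCAN1 probe (ILMN_2290338) was detected on 0 of 6 arrays. The 3 probes are annotated to 3 different RefSeq transcripts of the gene, and which transcripts each can bind was not examined.

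The stretches before 2 annotated start sites are shown for the gene of the feedback loop and for the gene that was higher, in each case the window with the most matches to GGAAA, the letters that NFAT proteins are known to prefer. RefSeq promoter windows (GRCh38.p14) existed for 7 of the 10 genes, 20 windows in all. The 250 bases before each start were searched for GGAAA on both strands, so that capitals mark GGAAA or its reverse complement TTTCC.
RCAN1 (chr21:34526823-34527072, minus strand): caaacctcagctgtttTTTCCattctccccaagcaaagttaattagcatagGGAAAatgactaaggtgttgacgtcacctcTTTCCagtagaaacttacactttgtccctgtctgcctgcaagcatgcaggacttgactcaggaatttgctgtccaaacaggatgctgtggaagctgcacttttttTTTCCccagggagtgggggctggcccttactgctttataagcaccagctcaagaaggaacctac
RCAN2 (chr6:46491450-46491699, minus strand): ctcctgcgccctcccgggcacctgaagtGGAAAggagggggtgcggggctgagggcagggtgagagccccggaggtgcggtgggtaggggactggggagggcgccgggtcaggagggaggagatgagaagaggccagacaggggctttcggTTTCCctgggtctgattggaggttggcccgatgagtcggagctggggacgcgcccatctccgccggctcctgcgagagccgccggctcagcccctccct
The RCAN1 window, at an internal start, holds 4 matches, a number reached by 1.87% of the 35116 windows of this length. The other 5 RCAN1 windows hold 0. The RCAN2 window holds 2 matches, a number reached by 22.4% of all windows, and the other 2 RCAN2 windows hold 0. These shares count single windows, so a window picked as the richest of several would reach them more often. The letters were not particular to these genes, since an NFATC2 window holds 3 matches (reached by 7.12% of all windows) and windows of RCAN3, NFATC1 and NFATC4 hold 1 (55.6% of all windows hold at least 1). These matches are letters and not measured binding sites, and the arrays do not show which start was used.

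RCAN3, the third regulator of the family, gave log2 intensities of 8.31, 8.05 and 8.08 in siHBO1 cells, against 8.31, 8.23 and 8.13 in siCTRL cells. The groups overlapped, and the log2 difference was -0.08 (SE 0.11, 95% interval -0.33 to 0.18, limma adjusted p = 0.747). The interval lies within 1.5-fold in either direction.

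None of the 4 tested probes of the calcineurin catalytic subunits passed the threshold. PPP3CA, which encodes the alpha subunit, gave 8.98, 9.08 and 9.19 in siHBO1 cells, against 9.08, 8.94 and 9.16 in siCTRL cells on its brighter probe (ILMN_1670970). Its second probe (ILMN_2044226) gave 7.69, 8.04 and 7.70 in siHBO1 cells, against 7.77, 7.60 and 7.78 in siCTRL cells. The groups overlapped on both, with log2 differences of 0.02 (SE 0.11) and 0.09 (SE 0.13), whose signs flipped under median scaling for the first (-0.04) and on leaving out siHBO1 replicate 2 for the second (-0.02). PPP3CB, the beta subunit, gave 10.44, 10.43 and 10.57 in siHBO1 cells, against 10.42, 10.75 and 10.81 in siCTRL cells. Its groups overlapped through siCTRL replicate 1, and the log2 difference was -0.18 (SE 0.13, 95% interval -0.48 to 0.12, limma adjusted p = 0.472).

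PPP3CC, the gamma subunit, was the other member whose groups did not overlap. It gave 7.33, 7.37 and 7.72 in siHBO1 cells, against 7.94, 7.79 and 7.83 in siCTRL cells, with siHBO1 replicate 3 close to the lowest siCTRL array. The log2 difference was -0.38 (SE 0.13, 95% interval -0.68 to -0.08) and did not pass over all tested probes (limma adjusted p = 0.15). It kept its sign and stayed uncalled in all 15 alternatives, with a range of -0.51 to -0.20 and adjusted p from 0.0645 to 0.322. The value of -0.20 was the one without background correction.

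**Figure D2:**
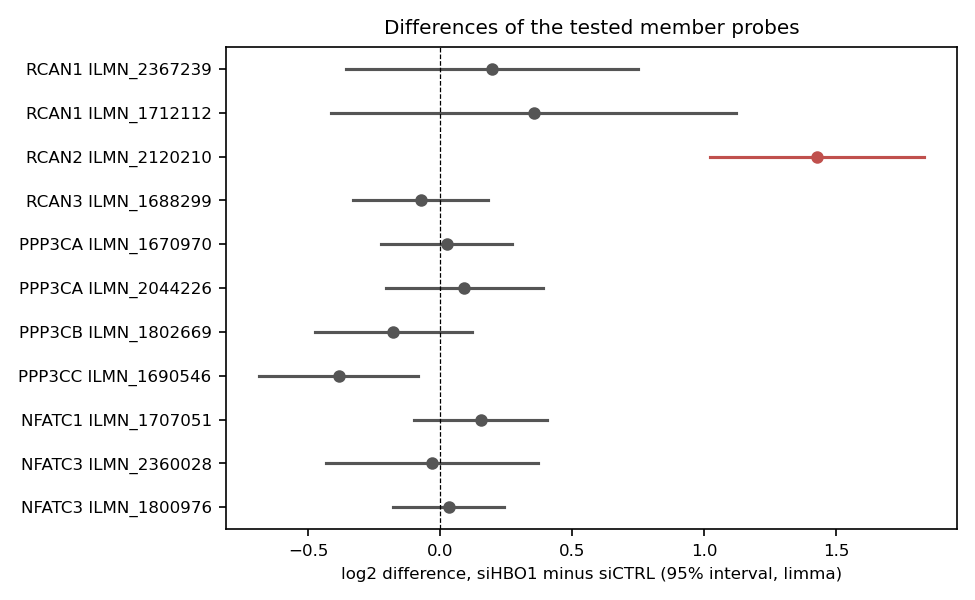
Log2 difference, siHBO1 minus siCTRL, of the 11 tested member probes with limma's 95% intervals; red marks the probe past an adjusted p of 0.05 and grey the others. RCAN2 stands at 1.43, the uncalled probes lie between -0.38 and 0.35, and RCAN1 ILMN_1712112 has the widest interval (-0.41 to 1.12).

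Of the NFAT factors, NFATC1 and NFATC3 gave measurable signal. NFATC1, a calcium-responsive factor of T cells, osteoclasts and heart valves, was tested on 1 of its 4 probes (ILMN_1707051), which gave 7.75, 7.62 and 7.48 in siHBO1 cells, against 7.49, 7.37 and 7.54 in siCTRL cells. The groups overlapped and the log2 difference was 0.15 (SE 0.11, 95% interval -0.10 to 0.40, limma adjusted p = 0.465). The other 3 NFATC1 probes were detected on 0 arrays.

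NFATC3, which is expressed in many tissues besides the immune system, was tested on 2 of its 4 probes. The brighter (ILMN_2360028) gave 7.27, 7.41 and 7.66 in siHBO1 cells, against 7.47, 7.19 and 7.76 in siCTRL cells. The dimmer (ILMN_1800976) gave 6.30, 6.37 and 6.32 in siHBO1 cells, against 6.21, 6.36 and 6.34 in siCTRL cells. The groups overlapped on both, with log2 differences of -0.03 (SE 0.17) and 0.03 (SE 0.09) and signs that changed among the alternatives, the first with array weights (0.002) and the second without siCTRL replicate 1 (-0.01). The 2 remaining NFATC3 probes, the 2 NFATC2 probes and the NFATC4 probe were detected on 0 arrays, with normalised log2 intensities from 4.65 to 5.48. A signal within the negative controls does not show that the RNA of NFATC2 and NFATC4 was absent.

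Across the 10 uncalled probes, the 95% intervals of 7 lay within 1.5-fold in either direction. The intervals of the other 3, both RCAN1 probes and PPP3CC, reached past 1.5-fold. A difference that missed the threshold does not show that the gene was unaffected.

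The other genes of the pathway were read from 6 lists written with earlier results of these arrays known. Of 82 listed genes, 50 had a tested probe, 0 were higher, 1 was lower and 49 did not pass in limma's test over all probes, while 3.82% of all tested genes had at least 1 probe that passed. Before adjustment, the brightest probe of 6 of the 50 genes was higher, and that of 5 lower, at a p of 0.05, against 1577 higher and 1332 lower of all 12227 tested genes. The median log2 difference of the 50 was 0.02, against 0.01 over all 12227 tested genes.

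Among 24 genes described as NFAT targets, mostly in immune and endothelial cells, 10 had a tested probe, 0 were higher and F3 was lower. F3 encodes tissue factor, the cell-surface starter of blood coagulation, which NFAT is reported to induce in endothelium. It gave 12.36, 12.36 and 12.38 in siHBO1 cells, against 12.90, 12.80 and 12.81 in siCTRL cells. Every siHBO1 array was below every siCTRL array, and the log2 difference was -0.47 (SE 0.08, limma adjusted p = 0.0402). A second F3 probe was at -0.55 (SE 0.13) and missed the threshold (adjusted p = 0.0699). It passed under 6 of 15 alternatives, and its groups did not overlap, with siHBO1 below, as for 13.8% of all tested probes. The call on the brighter probe was lost on leaving out any 1 of the 6 arrays (adjusted p from 0.0679 to 0.14), with no filter on detection (0.0755) and with a replicate block (0.0663). With an array left out, 1 to 271 of all tested probes passed. Log2 differences in this list ran from -0.62 to 0.82, with a median of -0.03. TNF, an inflammatory cytokine, was at 0.35 (SE 0.14, adjusted p = 0.214). Of the list, 14 genes had no tested probe, among them the T-cell cytokines IL2, IL3, IL4, IL13 and IFNG, classical NFAT targets whose probes were detected on 0 arrays.

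Of 15 genes of calcium entry and release, 12 were tested and 0 passed, while 4 were higher and 0 lower before adjustment, to be read beside the 1577 and 1332 of 12227 genes given above. ORAI3, a pore subunit of store-operated calcium channels, came nearest, with 7.55, 7.44 and 7.21 in siHBO1 cells, against 6.83, 6.57 and 6.87 in siCTRL cells. Its groups did not overlap, with siHBO1 above, as for 13.3% of all tested probes. The log2 difference was 0.65 (SE 0.13, limma adjusted p = 0.0518), just short of the threshold. It passed under 6 of 15 alternatives, and without background correction it was 0.27. PLCG2, a phospholipase that produces the calcium-releasing messenger, was at 0.53 (SE 0.19, adjusted p = 0.169) with overlapping groups. The list median was 0.09.

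Of 17 calcineurin partners and regulators, 8 were tested and 0 passed, with a list median of 0.005. PPP3R1, the widely expressed calcineurin B regulatory subunit, was at -0.28 (SE 0.14, limma adjusted p = 0.299). PPIA, cyclophilin A, through which cyclosporin inhibits calcineurin, was at -0.58 (SE 0.16, adjusted p = 0.101), or -0.25 without background correction. PPIA has many processed pseudogenes, so what its 1 probe reads is uncertain.

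Of 13 NFAT kinases and export factors, 10 were tested and 0 passed, with a median of 0.05. MAPK9, the kinase JNK2, was at -0.38 on its brightest probe (SE 0.09, limma adjusted p = 0.0764) and passed under 3 of 15 alternatives. A second MAPK9 probe was at -0.19 with overlapping groups (adjusted p = 0.438). CSNK1A1, a casein kinase that phosphorylates NFAT, was at -0.22 (SE 0.10, adjusted p = 0.242). Of 12 genes of other calcineurin substrates, 9 were tested and 0 passed, with a median of 0.008. DNM1L, the mitochondrial fission GTPase DRP1, was at -0.41 on its brightest probe (SE 0.11, adjusted p = 0.0929) and passed under 2 of 15 alternatives. Its other probes were at -0.42 with siHBO1 below (adjusted p = 0.113) and at -0.17 with overlapping groups (adjusted p = 0.397). ELK1, a transcription factor of the growth factor response, was at -0.20 (SE 0.10, adjusted p = 0.306). NFAT5, the Rel-domain relative that calcineurin does not control and that responds to salt stress, was at -0.17 (SE 0.29, adjusted p = 0.789) on its brightest probe, and at 0.19 without siHBO1 replicate 3.

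**Figure D3:**
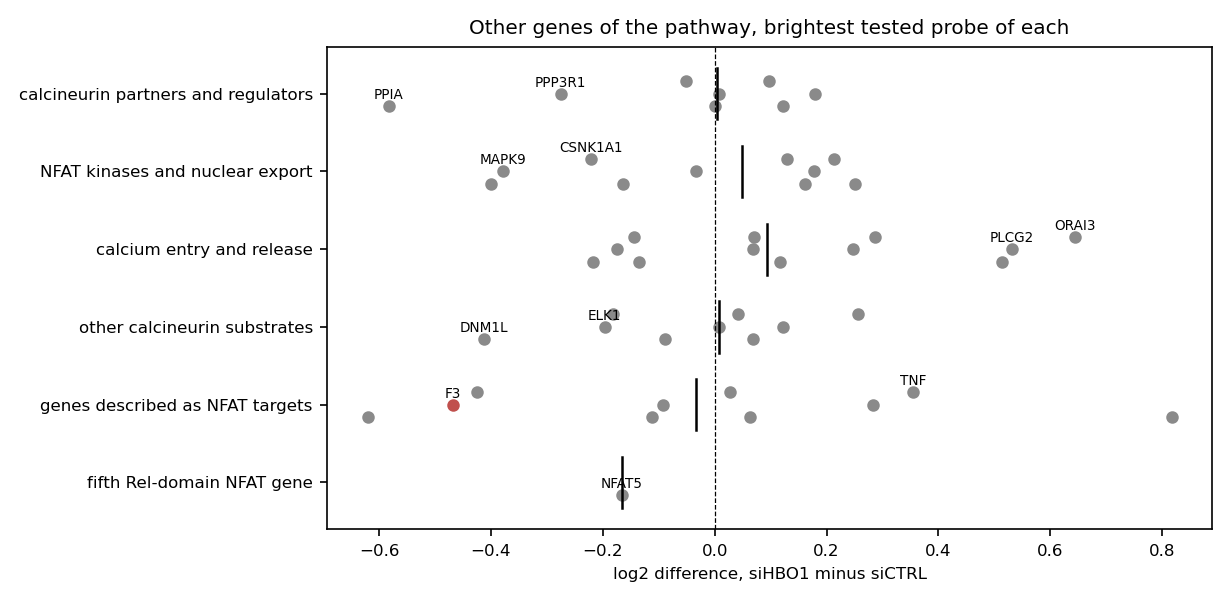
Log2 difference, siHBO1 minus siCTRL, of the brightest tested probe of each other pathway gene, by list; black bars are list medians, red marks the gene past an adjusted p of 0.05, and the genes named in the text are written beside their points. F3 (-0.47) is the red point, ORAI3 (0.65) lies to the right of its list, and the medians lie between -0.17 and 0.09.

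The patterns most like that of RCAN2 were picked by correlation. The 5 tested probes of other genes with the highest Pearson r to ILMN_2120210 over the 6 arrays were those of ID2, FAM117B, QPRT, NDRG4 and NT5C2, with r from 0.997 to 0.999. These r are a description, since the 6 arrays share 1 step between the groups. ID2, an inhibitor of basic helix-loop-helix factors, averaged 11.03 ± 0.24 in siHBO1 cells and 9.75 ± 0.26 in siCTRL cells (SD, n = 3 each), a log2 difference of 1.28 (SE 0.17, limma adjusted p = 0.0243). QPRT, an enzyme of NAD synthesis, and NDRG4, an NDRG family protein, were also higher, at 0.60 (SE 0.10, adjusted p = 0.0343) and 0.76 (SE 0.12, adjusted p = 0.0304). FAM117B (0.51, adjusted p = 0.051) and NT5C2, a nucleotidase (0.20, adjusted p = 0.217), did not pass. QPRT lost its call under 9 of 15 alternatives, median scaling among them (adjusted p = 0.0639), and no call of ID2, QPRT or NDRG4 survived leaving out siHBO1 replicate 1, siHBO1 replicate 2, siCTRL replicate 2 or siCTRL replicate 3. Without any of those arrays only 1 to 6 of all tested probes passed.

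**Figure D4:**
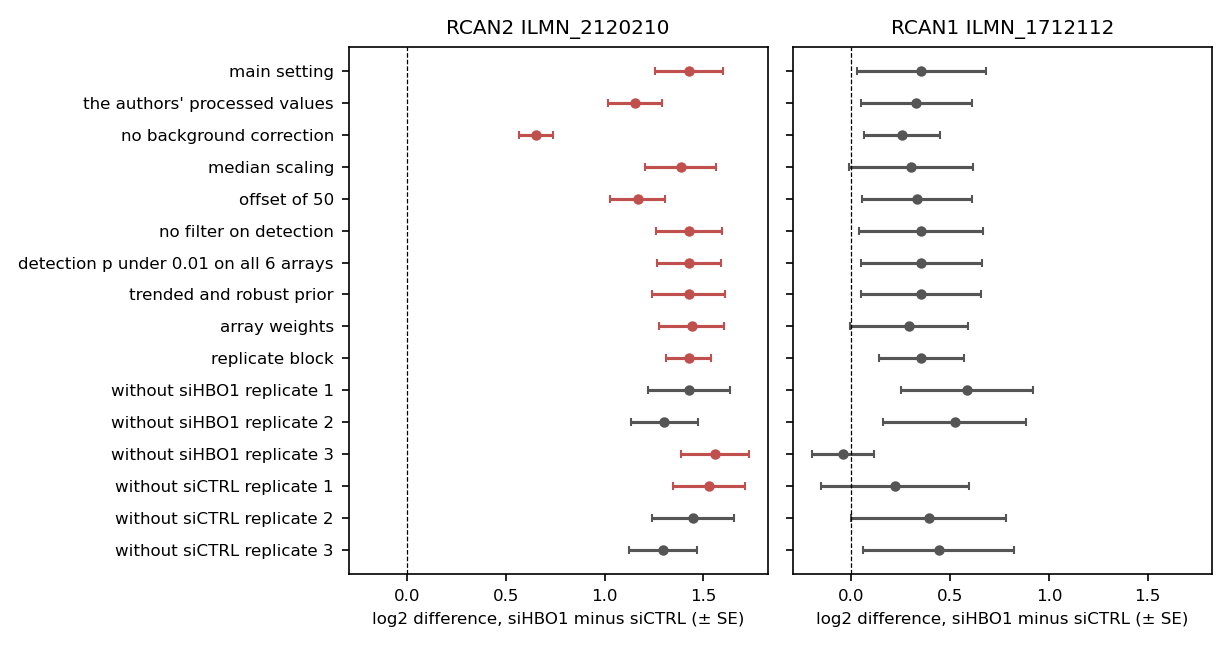
Log2 difference ± SE of the RCAN2 probe and of the dimmer tested RCAN1 probe under the setting used and 15 alternatives; red points have an adjusted p under 0.05 and grey points do not. RCAN2 ranges from 0.65 without background correction to 1.56 without siHBO1 replicate 3, and RCAN1 falls to -0.04 without siHBO1 replicate 3.

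The identity of the cells was read from the same arrays. Between 20546 and 21507 probes were detected per array. Of 9 ovarian carcinoma markers, 8 were detected on all 6 arrays by their brightest probe, PAX8 included, and 2, MUC16 (1.33, limma adjusted p = 0.0243) and CDH1 (0.76, adjusted p = 0.04), were higher in siHBO1 cells. By brightest probe, 234 of all 12227 tested genes were higher. WT1, the ninth, was detected on 1 of 3 siHBO1 arrays and 3 of 3 siCTRL arrays, with siHBO1 below siCTRL on every array, at a log2 difference of -0.53 that did not pass (adjusted p = 0.113). The summed linear signal of the list was 57647 to 63826 in siHBO1 cells, against 54621 to 59037 in siCTRL cells. The immune markers CD3D, CD3E and PTPRC and the fibroblast markers COL3A1, LUM and PDGFRB were detected on 0 arrays. Other markers of these lists were detected on all 6 arrays. Some had groups that did not overlap, which held for 27.1% of all tested probes (13.3% with siHBO1 above). CD14, of monocytes, was at 0.79 with siHBO1 above (limma adjusted p = 0.0989). LCK, a T-cell kinase, was at 0.28 on its brightest probe with overlapping groups (adjusted p = 0.262) and at 0.43 with siHBO1 above on the next (adjusted p = 0.0515). Dimmer LCK probes pointed apart, at 0.62 with siHBO1 above (adjusted p = 0.0633) and at -0.48 with siHBO1 below (adjusted p = 0.162). COL1A2, a fibrillar collagen chain, was at 0.33 with siHBO1 above on its brighter probe (adjusted p = 0.201). The brightest probes of CD2, COL1A1 and DCN were detected on some arrays only. They were at -0.43, -0.14 and -0.09 with overlapping groups (adjusted p = 0.414, 0.78 and 0.76). The summed signal of the immune list, most of it from CD14 and LCK, was 702 to 756 in siHBO1 cells, against 519 to 629 in siCTRL cells. That of the fibroblast list was 374 to 456 in siHBO1 cells, against 353 to 400 in siCTRL cells. None of the genes of either list passed the test.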

How the data were processed

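The deposited table holds each probe's mean bead intensity and detection p-value per array, per the file headers. The second deposited table holds processed log2 values, whose column median is the same on all 6 arrays (6.31). Tools listed, per the submitters' processing notes, are GenomeStudio and lumi, with neither role nor version stated. The limma package (3.58.1, under R 4.3.3) was applied to the intensities: its neqc function corrected background from the detection p-values (offset 16), quantile-normalised and took log2. Groups were compared by lmFit and eBayes, siHBO1 minus siCTRL, with Benjamini-Hochberg adjustment over 21333 probes. Probes took their symbols from the platform annotation (30109 with 1 symbol). Of these, 30070 had an Entrez identifier found in RefSeq and took the RefSeq symbol, whether or not it differed. The number of arrays limits precision. On 10 simulated data sets of these probes the fit recovered 87.5% of 2-fold and 31.1% of 1.5-fold changes between siHBO1 and siCTRL. Each set had independent normal noise of the fitted size and 200 changed probes, shifted on the normalised scale. The rates therefore leave out background removal and any structure among replicates, and need not hold for these arrays. Members and lists were chosen with earlier results of these data known. Named pathway genes were those called, or the 2 with the smallest p in each list with 0 or 1 called. No slide block was run, because the file headers name no slide. Figures used matplotlib 3.10.9.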

Additional observations from a re-analysis of the deposited data

How the results depend on the processing

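Of 164 values of the 11 member probes under alternatives, 150 kept their sign and their side of the threshold, 10 changed sign and 4 lost a call. The 10 sign changes belonged to uncalled probes: PPP3CA ILMN_1670970 under median scaling (-0.035) and without siHBO1 replicate 3 or siCTRL replicate 2, PPP3CA ILMN_2044226 without siHBO1 replicate 2, NFATC3 ILMN_2360028 with array weights (0.0021) and without siHBO1 replicate 1 or siCTRL replicate 3, NFATC3 ILMN_1800976 without siCTRL replicate 1, and both RCAN1 probes without siHBO1 replicate 3. NFAT5 also changed sign without siHBO1 replicate 3. Leave-one-out ranges were -0.037 to 0.078 and -0.024 to 0.15 for PPP3CA, -0.17 to 0.11 and -0.014 to 0.060 for NFATC3, -0.021 to 0.42 and -0.042 to 0.58 for RCAN1, -0.38 to 0.19 for NFAT5 and 1.30 to 1.56 for RCAN2. The 4 lost calls were all RCAN2 with an array left out. NFATC3 ILMN_1800976, KAT7 and SYT1 were not tested under the stricter detection filter.

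In all, 582 probes passed. The count was 979 with the authors' processed values, 1811 without background correction, 1020 with an offset of 50, 247 with no filter on detection, 1136 with a detection p under 0.01 on all 6 arrays, 1886 with a trended and robust prior, 913 with array weights, 1665 at an adjusted p under 0.10, and 1 to 271 on leaving out an array. It was 271 without siHBO1 replicate 3 and 122 without siCTRL replicate 1. For siHBO1 replicates 1 and 2 it was 6 and 3, and for siCTRL replicates 2 and 3 it was 1 and 1. Higher probes made up 54% of the calls, against 38.3% of 614 under median scaling. The 1 pathway gene called became 2, 4, 2, 0, 3, 4, 2 and 4 in the same order of the first 8 settings, and 0 on leaving out any array. Each setting with fewer arrays or more probes tested also made fewer calls.

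Same-numbered siHBO1 and siCTRL arrays deviated from their group means with correlations of 0.26, -0.02 and 0.22. For arrays of different numbers these correlations ran from -0.28 to 0.09. Whether the replicate numbers pair the samples cannot be told from these few values. With the replicate number as a block, 282 probes and 0 pathway genes passed, and RCAN2 stayed at 1.43 (adjusted p = 0.0443). The cause of these changes was not tested. Dim probes are limited by background, so folds of RCAN2, KAT7 and ORAI3 depend on its removal.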

Other observations

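PPP3CA-DT, a noncoding transcript that starts beside PPP3CA and was looked at after the values of the other genes were seen, gave log2 intensities of 10.15, 10.48 and 10.01 in siHBO1 cells, against 9.92, 9.71 and 9.74 in siCTRL cells. Its groups did not overlap, with siHBO1 above, as for 13.3% of all tested probes. The log2 difference of 0.43 (SE 0.14, limma adjusted p = 0.145) did not pass, while both PPP3CA probes had overlapping groups. It passed under 1 alternative, a trended and robust prior (adjusted p = 0.0472).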
